A study of Drosophila melanogaster with 384 samples.

Results

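Cytosolic ribosomal protein genes of Drosophila melanogaster were examined in single neuroblasts, the neural stem cells of the larval brain. A gene was taken as a member if its current symbol began with RpL, RpS or RpLP followed by a digit, once gene identifiers had been matched to symbols, and if it had at least 1 read. Of 92 such symbols, 87 were found in the table and 86 had a read, out of 11824 features with a read. RpL10Aa had 0 reads. RpS10b, RpL27A, RpL31, RpL19 and RpS12 were not matched and were not analysed here.

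Tumor cells came from larvae with 1 copy of sh-brat, and control cells from larvae with 1 copy of sh-mCherry. All larvae also carried 1 copy of UAS-Dcr2, of the driver inscGal4 and of UAS-CD8::GFP. Dicer-2, membrane GFP and the hairpin were thus expressed in neuroblasts of both groups, which differed in the hairpin's target, brat (a translational repressor that restrains neuroblast self-renewal) or mCherry. Wandering larvae 6 to 7 days old, reared at 29 °C, gave 3 tumor central brains and 5 control central brains, and the brains of each group were pooled. Sorted cells were amplified one per well by SMART-Seq2, a full-length protocol without molecular identifiers, on 2 plates for tumor (plates 3 and 4) and 2 plates for control (plates 1 and 2).

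The ribosome reads messenger RNA and joins amino acids into protein. Its small subunit decodes the message and its large subunit forms peptide bonds, and each holds many ribosomal proteins around its RNA. Most of these proteins are encoded by a single fly gene with a short, highly expressed transcript, while some have a second copy, and several such copies are known for expression in the germline. In stem cells that grow and divide, ribosome production supports the rate of protein synthesis.

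After wells under 100000 reads or 1000 genes were left out, 93 and 92 tumor cells (plates 3 and 4) and 180 control cells (89 and 91 on plates 1 and 2) remained. Depth per cell ran from 185566 to 1960187 reads in tumor cells (median 1122670) and from 126882 to 2329488 in control cells (median 1507070). The hairpin's target brat was at 88.1 CPM (counts per 1000000 reads, from reads summed over cells) in tumor cells and 343 CPM in control cells, and lower on both tumor plates than on both control plates. Summed levels of 7 neuroblast markers were 7153 CPM in tumor cells and 4027 CPM in control cells, although mira was at 1436 CPM in tumor cells and 1558 CPM in control cells, ase at 102.04 CPM in tumor cells and 157.8 CPM in control cells, and insc at 77.45 CPM in tumor cells and 73.97 CPM in control cells. Each group was 1 pool of brains and no label tied a cell to a brain, so biological replicates are lacking and neither tests nor p-values are reported. A plate held cells of 1 group, so the effects of plate and of group cannot be told apart. The 4 ratios of a tumor plate over a control plate show the visible spread. Intervals are 95% intervals that cover the counting of reads only. In a share of reads, more RNA of these genes and less RNA of others cannot be told apart.

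Ribosomal protein transcripts took up a larger share of the reads in tumor cells. They made 18.2% of the summed tumor reads (exact Clopper-Pearson interval 18.2008 to 18.2114) and 12.1% of the summed control reads (12.1067 to 12.1146). By plate the share was 18.5% and 17.9% on tumor plates 3 and 4, against 11.1% and 13.1% on control plates 1 and 2. Both tumor plates lay above both control plates, and the control plates differed from each other by more than the tumor plates did. The tumor share was 1.503-fold the control share, a log2 ratio of 0.59 with 0.73, 0.49, 0.69 and 0.45 for the plate pairs 3 over 1, 3 over 2, 4 over 1 and 4 over 2 (SD 0.14 over the 4 pairs).

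Single cells showed the same shift with a wide overlap. The share per cell ran from 8.71% to 35.5% in tumor cells (median 17.8%, SD 3.58, n = 93 and 92 cells) and from 6.03% to 19.0% in control cells (median 12.02%, SD 2.06, n = 180 cells). Of the tumor cells, 63 (34.1%) lay above the highest control cell, and 5 control cells lay below the lowest tumor cell. More than 15% of reads fell in ribosomal protein genes in 82.2% of tumor cells and 8.89% of control cells (16 cells), and 15 of those 16 control cells were on plate 2. Genes detected per cell moved with the groups too: at an equal depth of 100000 reads the median was 3165 genes in tumor cells and 5013.5 in control cells. The part of this difference in the share was not tested.

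**Figure D1:**
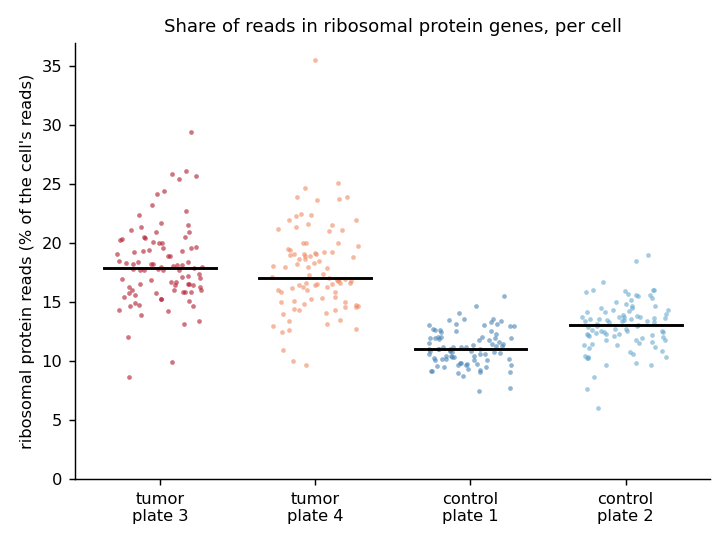
Share of each cell's reads that fell in ribosomal protein genes (percent, vertical axis) for every kept cell of tumor plates 3 and 4 and control plates 1 and 2. Each point is 1 cell and black lines are plate medians. Tumor cells spread from 8.71% to 35.5% and control cells from 6.03% to 19.0%.

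Within a plate, the share was weakly related to depth and to the number of genes. Spearman's rho across cells between the share and the number of genes was 0.42 and 0.44 on tumor plates 3 and 4 (93 and 92 cells), against -0.09 and 0.04 on control plates 1 and 2 (89 and 91 cells). With total reads it was 0.29 and 0.30 on the tumor plates, against -0.05 and 0.28 on the control plates. The cells of a plate share a pool of brains and a library preparation, and the share and the gene number come from the same reads, so these values are descriptions.

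Most tumor cells carried type II neuroblast transcripts, and the share was higher in them than in the rest of the tumor cells. Type II neuroblasts are the lineage class that divides through intermediate progenitors, and a cell is called type II-like here if 3 or more of the genes pnt, btd, Sp1 and tll had 5 or more reads each. Ribosomal protein genes held 18.6% of reads in the type II-like tumor cells, which were all tumor cells but 28, and 11.2% in the 8 type II-like control cells. Those 28 tumor cells had 15.8%, and the remaining control cells 12.2%. Type II-like tumor cells were also deeper, with a median of 1135360 reads against 966022 in the 28 other tumor cells, and had more genes at equal depth, with a median of 3346 against 2683.5 in the 28. The part of depth and gene number in this difference was not tested. The 8 type II-like control cells ran from 7.67% to 13.7%, all below the median of the type II-like tumor cells (18.05%).

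Ribosomal protein genes were among the most abundant transcripts in both groups. Per kilobase of exonic length, their median level was 2397 CPM in tumor cells and 1486 CPM in control cells, while the median of all features was 22.6 CPM per kilobase in tumor cells and 22.2 in control cells. Members made up 51 of the 100 highest features per kilobase in tumor cells and 37 in control cells. A mean of at least 5 CPM over the groups was reached by 79 members, 48 of the large and 31 of the small subunit, and 73 of them had a read in every kept cell. Among the 5 highest levels per kilobase in control cells were those of RpL41, RpL40, RpL14 and RpL23, all large-subunit proteins. RpL41, which encodes one of the smallest of these proteins, reached 5643 CPM per kilobase in tumor cells and 4581 in control cells. RpL40, made as a fusion to ubiquitin, reached 5078 and RpL14 6486 CPM per kilobase in tumor cells, against 4224 and 3878 in control cells.

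The lowest levels per kilobase among the 79 belonged to RpL7-like, RpLP0-like, RpL24-like, RpS15Ab and RpL5. RpL7-like stood at 136.3 CPM per kilobase in tumor cells and 73.9 in control cells, and RpLP0-like at 106.4 in tumor cells and 78.1 in control cells. RpL5, which binds the 5S ribosomal RNA, has a long annotated exonic length of 3835 bases, so its level of 521 CPM per kilobase in tumor cells and 414 in control cells depends on the annotation. When the union of exons was replaced by the canonical transcript, 4 of the 5 highest and 5 of the 5 lowest members were kept, and with the shortest protein-coding transcript 3 and 4 were kept. Both of these lengths were tried after the data had been seen, the second because the first left the length of RpL5 as it was.

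Levels of abundant members were even from cell to cell. Among genes with at least 500 CPM, the median coefficient of variation over cells was 0.35 for 73 members in tumor cells and 0.34 in control cells. For 268 other features it was 0.65 in tumor cells and 0.43 in control cells. Members and other features were not matched by level above this minimum, and the part of level in the difference was not tested. Pairwise rank correlations between members within a plate had medians of 0.31 and 0.35 on tumor plates 3 and 4, against 0.25 and 0.49 on control plates 1 and 2. Cells were not thinned for these values, so depth differed between the cells of a plate.

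Nearly all members were higher in tumor cells, by a modest amount. The median log2 ratio of CPM over the 79 members was 0.63, beside -0.00 over all 6450 features at 5 CPM, and 76 of 79 were above 0. The middle 50% of members lay between 0.44 and 0.85. The median was 0.83, 0.54, 0.75 and 0.46 in the plate pairs 3 over 1, 3 over 2, 4 over 1 and 4 over 2. Higher levels on both tumor plates than on both control plates were found for 68 members (86.1%), beside 33% of all features, and lower levels on both for 3 members, beside 35.1%. The other 8 members overlapped between the groups' plates. The median was 0.65 for large-subunit members and 0.62 for small-subunit members.

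Few members passed 2-fold. In summed reads 5 were at least 2-fold higher in tumor cells (6.33%, beside 13.1% of all features), and 1, RpS15Ab, was at least 2-fold lower (1.27%, beside 14.7%). In all 4 plate pairs, 0 members were at least 2-fold higher (6.9% of all features) and 1, again RpS15Ab, was at least 2-fold lower (7.57%). The count of 5 rests on single plates. It was 1 of 79 without control plate 1 (beside 12.3% of all features) and 24 of 79 without control plate 2 (beside 17.9%). Without tumor plate 4 it was 10 (beside 14.0%) and without tumor plate 3 it was 5 (beside 13.6%). Whether members passed 2-fold more or less often than all features thus varied with the plate left out.

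**Figure D2:**
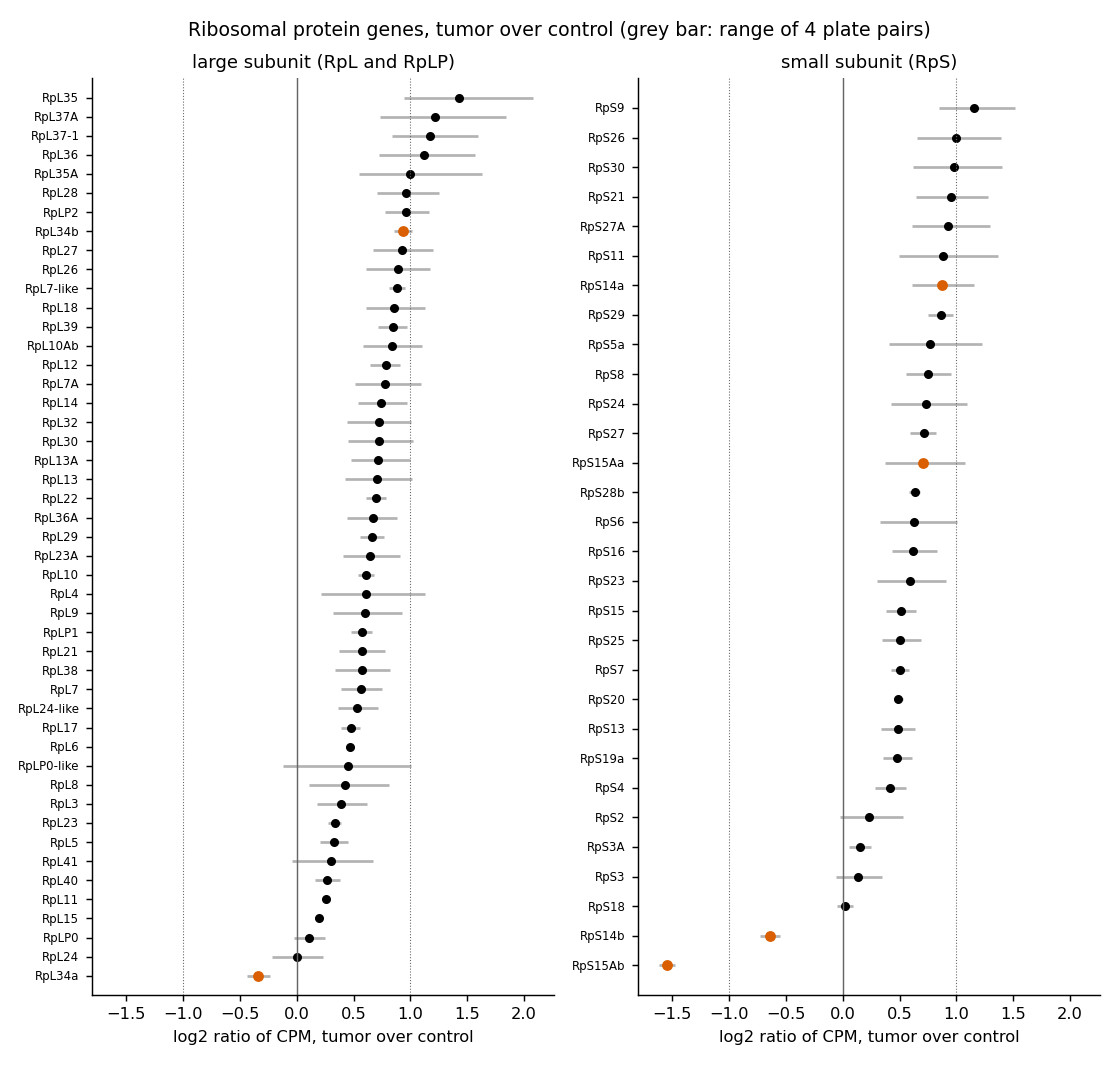
Log2 ratio of CPM, tumor over control (horizontal axis), for ribosomal protein genes at 5 CPM or more, split into large and small subunit. Points are ratios of summed reads, grey bars the range of the 4 plate pairs, dotted lines 2-fold, and orange points the members of the RpS15A, RpS14 and RpL34 pairs. RpL35 is highest at 1.43 and RpS15Ab lowest at -1.54, and in each orange pair 1 copy lies above 0 and the other below.

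The 5 members past 2-fold were large-subunit genes apart from RpS9. RpL35 had 2306 and 2129 CPM on tumor plates 3 and 4, against 545 and 1108 CPM on control plates 1 and 2. Its tumor plates were alike and above both control plates, while control plate 2 exceeded control plate 1 by a log2 ratio of 1.02. Its log2 ratio was 1.43, with plate pairs from 0.94 to 2.08 (SD 0.60). RpL37A had 1446 and 1309 CPM on the tumor plates, against 404 and 789 CPM on the control plates, a log2 ratio of 1.21. RpS9, a small-subunit protein, had 2785 and 2713 CPM on the tumor plates, against 972 and 1509 CPM on the control plates, a log2 ratio of 1.15. RpL37-1 (1.17) and RpL36 (1.12) completed the 5, and RpS26 followed at 1.00. All 5 were higher on control plate 2 than on control plate 1, as were 62 of the 79 members, with a median log2 ratio of 0.31 between those plates. Exons of RpS9 overlap asRNA:CR45874 by 512 bases and those of RpL37A overlap another gene too. Whether strand was used in counting is not stated in the labels.

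Other well known members had log2 ratios between 0.27 and 0.93. RpL32, a common reference gene in fly work, had 1447 and 1231 CPM on tumor plates 3 and 4, against 720 and 909 CPM on control plates 1 and 2, a log2 ratio of 0.72. RpS6, the small-subunit protein phosphorylated by S6 kinase, had 2125 and 2116 CPM on the tumor plates, against 1055 and 1689 CPM on the control plates, a log2 ratio of 0.63. RpS27A, a small-subunit protein also made as a ubiquitin fusion, averaged 2477 CPM in tumor cells and 1301 CPM in control cells (0.93). Its large-subunit counterpart RpL40 had the smaller log2 ratio of 0.27. RpL41 had 1928 and 1668 CPM on the tumor plates, against 1719 and 1210 CPM on the control plates, so that its plates overlapped.

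The proteins of the ribosomal stalk, which recruits elongation factors, did not move by equal amounts. RpLP0, the stalk base, had 4094 and 4450 CPM on tumor plates 3 and 4, against 4171 and 3750 CPM on control plates 1 and 2, and the groups overlapped (log2 ratio 0.11, plate pairs -0.03 to 0.25). RpLP1 had 3863 and 3570 CPM on the tumor plates, against 2441 and 2568 CPM on the control plates (0.57). RpLP2 had 3238 and 3184 CPM on the tumor plates, against 1446 and 1861 CPM on the control plates (0.96). For RpLP1 and RpLP2 both tumor plates lay above both control plates.

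Some abundant members differed little. RpL24 was at 2356 CPM in tumor cells and 2350 CPM in control cells, with plate pairs from -0.21 to 0.23 on the log2 scale. RpS18 was at 1121 CPM in tumor cells and 1105 CPM in control cells, and its log2 ratio was -0.08 when every cell had equal weight. For both genes the plates of the groups overlapped. Their log2 ratios of 0.00 and 0.02 lay below the list's middle 50%.

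By chromosome, the members' median log2 ratio was 0.71 on X (13 members, all features 0.21), 0.60 on 2L (17, all features -0.09), 0.57 on 2R (17, all features -0.06), 0.64 on 3L (13, all features -0.04) and 0.66 on 3R (18, all features -0.12). RpS3A, the one member on chromosome 4, was at 0.15, where all features of that chromosome had 0.61. Of the 5 members past 2-fold, RpL35, RpL36 and RpL37-1 lie on X (23.1% of its members, beside 17.2% of all features on X).

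The 3 members that were lower on both tumor plates were each 1 copy of a pair whose other copy was higher. RpS15Ab, RpS14b and RpL34a encode copies of the small-subunit proteins S15A and S14 and the large-subunit protein L34. No transcript sequences were used here, so how alike the copies are could not be computed, and reads of near-identical stretches may have been split or dropped by the counting, which leaves the shares uncertain.

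RpS15Ab (chromosome 2R, 10821676 to 10822399, BDGP6, plus strand) had 88.5 and 82.5 CPM on tumor plates 3 and 4, against 252 and 246 CPM on control plates 1 and 2. Both tumor plates lay far below both control plates, and plates of 1 group were close. Its log2 ratio was -1.54, with plate pairs from -1.61 to -1.47 (SD 0.06). The other copy, RpS15Aa (chromosome X, 13335637 to 13337705, minus strand), had 1239 and 1117 CPM on the tumor plates, against 588 and 861 CPM on the control plates (0.71). RpS15Ab therefore held 6.76% of the pair's reads in tumor cells and 25.6% in control cells. By plate this was 6.67% and 6.87% on the tumor plates, against 30.0% and 22.2% on the control plates. Per exonic length its share was 8.64% in tumor cells and 30.98% in control cells.

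The lower RpS15Ab share was seen cell by cell. Among cells with at least 100 reads of the pair, its median share was 3.61% in tumor cells (all but 1) and 25.4% in control cells (all but 3). The upper quartile of tumor cells, 9.92%, lay below the lower quartile of control cells, 19.8%. A share under 1% was found in 70 tumor cells (38.04%) and 2 control cells (1.13%). An RpS15Ab read was present in 88.1% of tumor cells and 99.4% of control cells without thinning.

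RpS14a and RpS14b lie next to each other on chromosome X (7933742 to 7934677 and 7934898 to 7935792, both plus strand), 220 bases apart. RpS14b had 326 and 327 CPM on tumor plates 3 and 4, against 479 and 540 CPM on control plates 1 and 2 (log2 ratio -0.64). RpS14a had 1761 and 1659 CPM on the tumor plates, against 789 and 1084 CPM on the control plates (0.87). The plates of the groups overlapped for neither gene, and the neighbours moved in opposite directions. RpS14b held 16.02% of the pair's reads in tumor cells (15.6% and 16.5% by plate) and 35.2% in control cells (37.8% and 33.2%). Per cell its median share was 14.8% in tumor cells and 34.97% in control cells with at least 100 reads of the pair, and it exceeded 50% in 0 tumor cells and 11 control cells. The 2 highest control cells, at 98.5% and 94.4%, had 126882 and 449721 reads in total.

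RpL34a (chromosome 3R, 26058420 to 26059267, minus strand) had 432 and 435 CPM on tumor plates 3 and 4, against 512 and 584 CPM on control plates 1 and 2 (log2 ratio -0.34). Its copy RpL34b (3R, 9400237 to 9401226, minus strand) had 1942 and 1806 CPM on the tumor plates, against 959 and 1000 CPM on the control plates (0.94). RpL34a held 18.8% of the pair's reads in tumor cells (18.2% and 19.4% by plate) and 35.9% in control cells (34.8% and 36.9%). Per cell the median was 18.0% in tumor cells and 36.4% in control cells with at least 100 reads of the pair. The share exceeded 50% in 3 tumor cells and 8 control cells, and the highest cells had 92.6% in tumor and 65.9% in control.

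**Figure D3:**
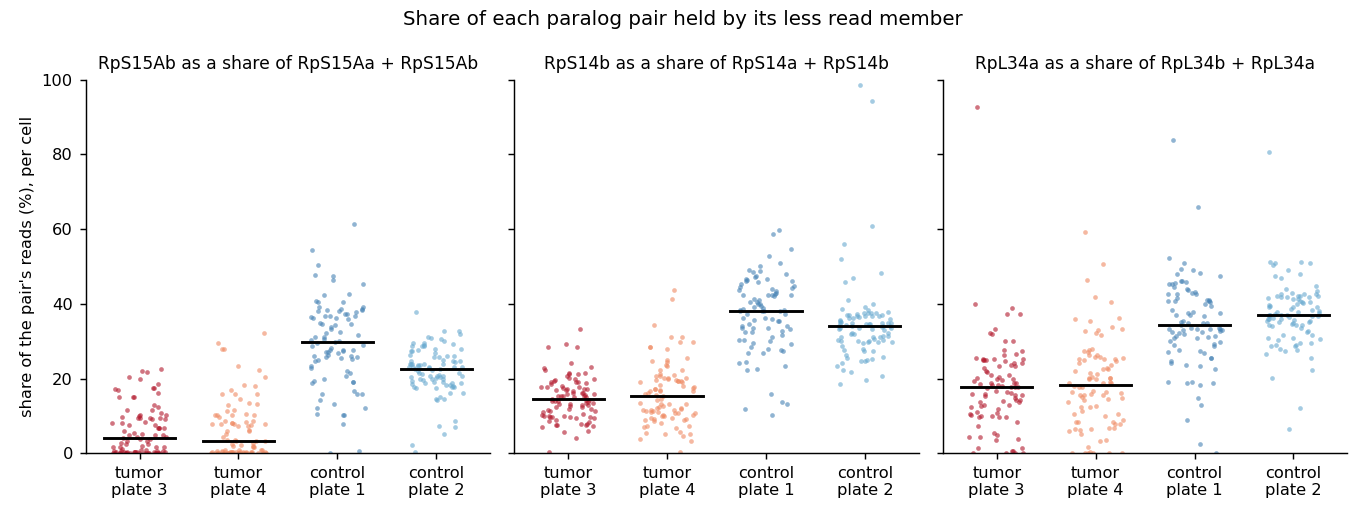
Share of a pair's reads held by RpS15Ab, RpS14b and RpL34a (percent, vertical axis) in every kept cell with a read of the pair, by plate. Each point is 1 cell and black lines are plate medians. In all 3 panels the medians of the tumor plates lie below those of the control plates, while single cells overlap. The summed shares of RpS15Ab are 6.76% in tumor cells and 25.6% in control cells.

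The sums of these pairs were higher in tumor cells, as for other members. The log2 ratio of the summed pair was 0.38 for RpS15A (plate pairs 0.12 to 0.66), 0.50 for RpS14 (0.29 to 0.72) and 0.60 for RpL34 (0.50 to 0.69). Restricting to type II-like cells kept the differences in share. RpS15Ab then held 7.25% in tumor cells and 22.6% in control cells, RpS14b 16.03% in tumor cells and 34.4% in control cells, and RpL34a 19.5% in tumor cells and 37.9% in control cells, with 8 control cells behind each control value. The log2 ratios of these copies shrank there, to -1.17 from -1.54 for RpS15Ab, -0.33 from -0.64 for RpS14b and -0.16 from -0.34 for RpL34a.

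For RpL24-like, RpLP0-like and RpL7-like the log2 ratio of summed reads was above 0. RpL24-like, whose product acts in assembly of the large subunit in yeast, was at 371 CPM in tumor cells and 257 CPM in control cells (log2 ratio 0.53) and held 13.6% of the reads of RpL24 and RpL24-like in tumor cells and 9.86% in control cells. RpLP0-like was at 100.9 CPM in tumor cells and 73.995 CPM in control cells, and its log2 ratio was 0.45, with plate pairs from -0.12 to 1.00 and -0.03 with the median over cells. RpL7-like was at 244 CPM in tumor cells and 132.5 CPM in control cells (0.88), but 1771 of its 1793 exonic bases overlap CG34164 on the same strand, so its reads cannot be told from those of that gene.

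Rare copies had few reads, and most of these came from control cells. Control cells also had more reads in total, 262976815 against 204489558 in tumor cells, and more genes at equal depth. With no minimum level, 21.5% of all features were at least 2-fold lower in tumor cells. The part of these differences in the counts of rare copies was not tested. RpS28a had 0 reads in tumor cells and 488 in 59 control cells (268 and 220 on plates 1 and 2). With a floor of 3 reads over the group, its level was at least 126.5-fold lower in tumor cells. RpL22-like had 0 reads in tumor cells and 49 in control cells, at least 12.7-fold lower. However, these reads came from only 3 control cells, and 46 of the 49 were on plate 1. RpS10a had 13 reads in 5 tumor cells and 271 in 25 control cells, with plate pairs from -4.29 to -3.70 on the log2 scale. RpS5b had 120 reads in tumor cells and 414 in control cells, with plate pairs from -3.005 to -0.38. RpS19b had 483 reads in 22 tumor cells and 606 in 56 control cells, and its plates overlapped. Its summed levels were alike, at 2.36 CPM in tumor cells and 2.30 CPM in control cells, but its log2 ratio was -0.61 after thinning. RpL37-2 had 4 reads in 1 tumor cell and 34 in 2 control cells, and RpS28-like 1 read in tumor cells and 0 in control cells. All 7 lay under 5 CPM.

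Several of these copies are known for expression in the fly germline, and germline markers were also unequal. Of 6 listed, 4 were matched, with a summed level of 7.70 CPM in tumor cells and 30.8 CPM in control cells. The piRNA-pathway genes aub and tej were at 2.10 and 0.07 CPM in tumor cells, against 12.3 and 15.8 CPM in control cells, while bam and piwi were at 3.62 and 1.90 CPM in tumor cells, against 2.24 and 0.38 CPM in control cells. The part of these markers in the counts of rare copies was not tested. Markers of other cell types were summed in the same way: 5 neuron markers reached 375 CPM in tumor cells and 135.3 CPM in control cells (carried by elav and fne, while nSyb and brp were lower in tumor cells, at 0.66 and 0.03 CPM against 3.32 and 0.62 CPM in control cells), 4 glia markers 56.5 CPM in tumor cells and 33.9 CPM in control cells, and 4 hemocyte markers 0.03 CPM in tumor cells and 0.34 CPM in control cells. The defining markers repo (glia) and Hml (hemocyte) had 10 and 0 reads in tumor cells, against 23 and 8 reads in control cells.

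Short transcripts other than ribosomal protein transcripts were lower in tumor cells. Members had a median exonic length of 927 bases, beside 2166 for all 6225 features with a length. Among other features the median log2 ratio was -0.84 under 600 bases, -0.60 from 600 to 800, -0.45 from 800 to 1200, -0.28 from 1200 to 2000, 0.11 from 2000 to 4000 and 0.49 above 4000. Members of the same classes had medians of 0.49 (9 members), 0.72 (20), 0.63 (31), 0.64 (17) and 0.36 (2), with none above 4000 bases.

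**Figure D4:**
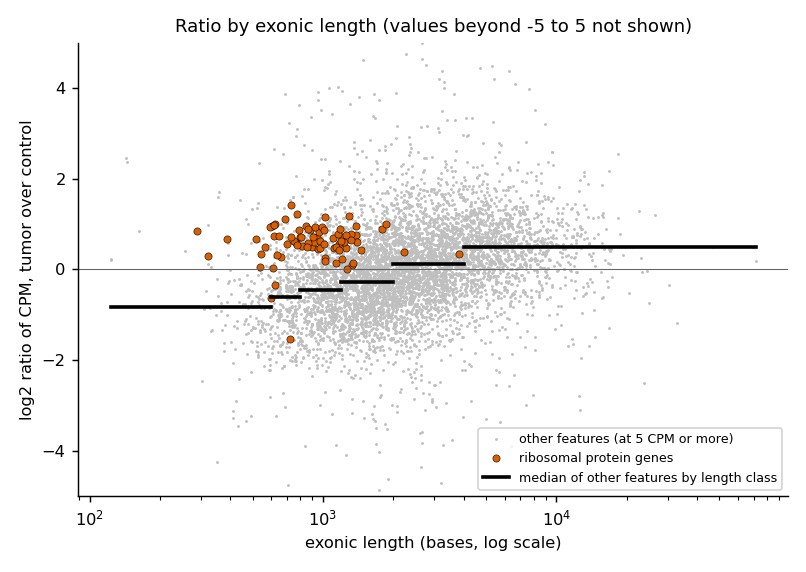
Log2 ratio of CPM, tumor over control (vertical axis), by exonic length in bases (log scale) for features at 5 CPM or more. Orange points are ribosomal protein genes, grey points other features, and black lines medians of other features by length class. The grey medians climb from -0.84 under 600 bases to 0.49 above 4000, and the orange points lie mostly above 0.

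The listed translation factors were not shifted as the ribosomal protein genes were. Of 42 listed, 40 were matched and all reached 5 CPM, with a median log2 ratio of 0.02, 21 above 0 and 19 below. On both tumor plates 13 (32.5%, beside 33% of all features) were higher and 16 (40%, beside 35.1%) lower than on both control plates. At least 2-fold higher were 4 (10%, beside 13.1% of all features) and at least 2-fold lower 2 (5%, beside 14.7%). The 4 were Xrp1 (2.79, 1286 CPM in tumor cells and 186.3 CPM in control cells), a transcription factor known for its part in the response to ribosomal protein mutations, and eIF1, eIF2beta and eIF3j (1.36, 1.18 and 1.02), which act in initiation. The 2 lower genes were eEF1alpha2 (-3.83), an elongation factor, and eIF3l (-1.05). For eEF1alpha2 the control plates differed, with 2.43 and 2.42 CPM on tumor plates 3 and 4, against 61.1 and 7.84 CPM on control plates 1 and 2, and its log2 ratio was -1.69 without control plate 1. Single cells weighed heavily on its level: the median control cell had 0.65 CPM and the highest 4023 CPM. The median tumor cell had 0 CPM and the highest 173.4 CPM. On the same list sta, a small-subunit protein, was at 6398 CPM in tumor cells and 3424 CPM in control cells (0.90), and Rack1, which binds the small subunit, at 2197 CPM in tumor cells and 1285 CPM in control cells (0.77). Nacalpha and bic, subunits of the nascent polypeptide-associated complex at the ribosome, had log2 ratios of -0.05 and -0.26.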

How the data were processed

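The authors deposited 1 table of raw read counts, whole numbers by gene and by cell, whose totals vary between cells. The submitters' processing notes name the builds BDGP6 and dm6. The aligner, counter and strand setting were not given in the sources used here. Per the labels' protocols, cells were sorted singly and amplified with 18 PCR cycles, so no doublet caller was run. Plates were read from blocks of library numbers in the labels, and the 96 index pairs were used on all 4 plates. No columns of 2 cells were identical.

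Of 14219 features, 13702 matched a symbol (94.8% of reads). Wells under 100000 reads or 1000 genes were left out, 7 tumor wells and 12 control wells. Reads of kept cells were added up by group (204489558 for tumor, 262976815 for control) and by plate, and levels are CPM. Ratios are tumor over control, and list values use features with a mean of at least 5 CPM. Lengths, coordinates and overlaps came from Ensembl on BDGP6. Sums carry exact Poisson intervals and shares exact Clopper-Pearson intervals at 95%, and a group at 0 reads was set to 3 reads. Cells were thinned to 100000 reads to compare gene numbers.

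The members and lists were chosen with earlier results of these data known. Genes named are all paralogs, 8 well known members, the 6 highest and 6 lowest ratios, the 5 highest and 5 lowest levels per length, members under 5 CPM, and the highest and lowest translation factors with sta and Rack1. Some members that this rule names are not reported here, and the plot of ratios leaves them out. Alternatives covered cell weight, thinning, scaling (TMM from edgeR, median of ratios, other totals), cell filters, minimum level, the median over cells, type II-like cells and each plate left out. The steps were tested on simulated counts. Tools were edgeR 4.0.16 under R 4.3.3, and Python 3.11.15 with the packages scipy 1.17.1, pandas 2.3.3, numpy 2.4.6 and matplotlib 3.10.9.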

Additional observations from a re-analysis of the deposited data

How the results depend on the processing

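The direction of the ribosomal protein share, of the list's median and of the RpS15Ab, RpS14b and RpL34a shares was kept under every alternative run. The log2 ratio of the share ran from 0.47 to 0.73 and the list's median from 0.50 to 0.82, the highest in type II-like cells. The count of members at least 2-fold higher, 5 of 79 as reported (beside 13.1% of all features), moved with the setting. It was 10 with TMM (beside 14.1% of all features) and 11 with median of ratios (14.2%). With totals that leave out ribosomal protein genes it was 14 (15.8%), and in type II-like cells 21 (14.7%). With each plate left out it was 1 to 24 (12.3% to 17.9%). The count at least 2-fold lower was 4 of 83 members with no minimum level, beside 21.5% of all features. As differences in percentage points of the pair, RpS14b moved to -22.8 with equal weight of cells and -22.6 after thinning, from -19.2. With the median over cells, RpL34a moved to -18.7, RpL24-like to 2.29 and RpLP0-like to -0.38, and in type II-like cells RpL24-like moved to 3.09. The translation factor median was 0.13 with totals that leave out ribosomal protein genes. RpL37-2, with 4 reads in tumor cells and 34 in control cells, reversed to 0.000676 percentage points in type II-like cells. The cause of these shifts was not tested. The median over all features moved by more than 0.1 with the median over cells (-0.66, where members lay 1.31 above it) and with totals that leave out ribosomal protein genes (0.10). Among log2 ratios of named genes and shares of rare copies, 831 values stayed within their spread over plate pairs, 73 moved beyond it, and 1, the RpL37-2 share, turned from a direction that all plate pairs had shared. In all, 21 of these values changed sign, over 7 genes or shares, among them RpL24, RpS18, RpS19b and RpLP0-like, whose plates overlapped between groups. The translation factor median ran from -0.06 to 0.13. No paired analysis was possible because the results come from no test and the replicate numbers only name cells. The planned check of paralogs by near-identical transcript sequence was not run. The 7 tumor wells and 12 control wells left out had ribosomal protein shares of 4.68% and 8.61%. Depth limits the copies with few reads, and single plates decide the count past 2-fold.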
